A study of Mus musculus with 6 samples.

Results

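Interferon response and antigen presentation genes were described in cultured mouse PASMCs, smooth muscle cells of the pulmonary artery wall that set the width of the vessel, with and without bone morphogenetic proteins. The members were 39 genes chosen by name, and all 39 had a row among the 21785 genes of the deposited table and were tested. They fell into 9 sensors and signal transducers, 21 effectors and 9 antigen presentation genes. The stimulated group was 3 samples given BMP9 (1 ng/mL) together with BMP10 (5 ng/mL) for 6 h, and the control group was 3 samples without either ligand. All came from C57BL/6 mice and had 48 h without medium supplements first. The cells were grown out of minced lung whose arteries had been filled with iron particles and collected on a magnet, so the cultures were not sorted by a cell marker, and whether the samples came from separate animals or cultures is not stated. P-values therefore measure only the spread between these samples, which may be technical.

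Interferons are secreted proteins that warn cells of viral nucleic acid. RNA sensors of the RIG-I family set off interferon production, interferon receptors then signal through JAK kinases to a complex that holds STAT2 and IRF9, and that complex switches on the interferon-stimulated genes. Many of these genes block viral replication, while others build the class I antigen presentation route, in which the immunoproteasome cuts peptides, the TAP transporter carries them into the endoplasmic reticulum and MHC class I molecules show them at the cell surface. Most cell types keep a low level of this programme running without infection.

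Values are normalized read counts, and changes are differences in log2(value + 1), stimulated minus control, ± SE. Changes were tested with limma with Benjamini-Hochberg adjustment over all 21743 genes with a mean of at least 1, at an adjusted p of 0.05. The values summed to between 30786695 and 31903795 in stimulated libraries and between 27295973 and 28283597 in control libraries, from an estimated 23.3 to 54.4 M reads in 5 libraries; the steps in the values did not fix the depth of control replicate 2. The stimulus acted, since Smad6, an inhibitory SMAD induced by BMP signalling, had 2387, 4890 and 2755 in stimulated libraries, against 181, 290 and 224 in control libraries (3.80 ± 0.29, limma adjusted p = 0.000896). Id1, another BMP target, had 1848, 2736 and 2076 in stimulated libraries, against 436, 691 and 526 in control libraries (2.01 ± 0.21, limma adjusted p = 0.00217). Libraries with the same replicate number shared deviations, strongly for replicates 1 and 2 (correlations of 0.747 and 0.741) and weakly for replicate 3 (0.218). What the number stands for is not stated. A fit with the replicate number as a block is given beside each result whose call it changes. A gene said to pass only with the block passed with it but not in the same fit without it. Other scalings, filters or sets of libraries called some of these genes without the block.

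All 8 listed smooth muscle markers were detected in each library. They summed to between 83819 and 178986 in stimulated libraries and between 34382 and 53248 in control libraries, and 4 of the 8 rose (5 with the block). Markers of other cells were present too, and no macrophage, endothelial or epithelial marker of the lists was at 0 in any library. The 16 macrophage markers summed to between 158656 and 243202 in stimulated libraries and between 108734 and 189126 in control libraries, with none called in either direction (1 at an unadjusted p under 0.05, none by limma-voom, 2 higher with the replicate block). Their sum exceeded that of the 8 smooth muscle markers in every control library and in stimulated replicates 1 and 3. Lyz2 alone averaged 118528.7 in control libraries, against 31089.7 for Acta2. The values below are those of the whole cultures. The 15 endothelial markers summed to between 10259 and 45993 in stimulated libraries and between 13130 and 49359 in control libraries, with none called (none at an unadjusted p under 0.05 or by limma-voom; 5 lower and 1 higher with the block), and all 15 were highest in replicate 2 of both groups. The 10 epithelial and mesothelial markers summed to between 3454 and 37995 in stimulated libraries and between 8463 and 37344 in control libraries, with none called (none at an unadjusted p under 0.05 or by limma-voom; 2 lower and 1 higher with the block). Of 8 fibroblast markers 2 fell, 4 with the block (sums of 9768 to 12856 in stimulated and 19587 to 24440 in control libraries), and of the 10 dendritic cell and lymphocyte markers with a row (1963 to 2869 in stimulated and 1406 to 3280 in control libraries) none was called in any of these fits and Cd3e, Cd3g, Gzmb and Nkg7 were at 0 in some libraries. The part of these cells in the results below was not tested, and in such bulk samples fewer cells of a type and less RNA per cell cannot be told apart.

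Many members have regulatory letters in common. The letters themselves were not used to choose the genes. The genes were named for the interferon response, however, so a high share of interferon elements is not an independent result. The interferon-stimulated response element (ISRE), where the STAT and IRF factors bind, was searched by its core GAAANNGAAA on either strand (TTTCNNTTTC on the other), in 250 bases before to 50 after each RefSeq gene start. Of the 39 members 30 had such a promoter entry and 14 of them held the core, 46.7%, against 3.99% of all genes in the table of promoters and 3.44% of all its promoters. It was found in 10 of 16 effectors, 3 of 7 sensors and signal transducers and 1 of 7 antigen presentation genes. The core of the gamma-activated site, TTCNNNGAA, which reads the same on both strands and binds STAT dimers, was in 6 of the 30, against 9.55% of all genes. A match is only a description of letters, and the Bst2 matches of both cores overlap. The following stretches, 5′ to 3′ on the gene's own strand in GRCm38.p6 from RefSeq, are shown because they put the element side by side in members that fell, in members that fell only with the replicate block and in members that were not called; capitals mark the ISRE core.
Rsad2, chr12:26456548-26456587, minus strand: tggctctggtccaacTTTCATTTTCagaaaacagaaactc
Gbp2, chr3:142620589-142620628, plus strand: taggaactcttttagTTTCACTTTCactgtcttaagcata
Gbp7, chr3:142530268-142530307, plus strand: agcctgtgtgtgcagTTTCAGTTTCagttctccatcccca
Stat2, chr10:128270261-128270300, plus strand: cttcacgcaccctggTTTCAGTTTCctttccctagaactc
Ifit1, chr19:34640770-34640828, plus strand: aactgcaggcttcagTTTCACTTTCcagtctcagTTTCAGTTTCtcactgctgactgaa
Isg15, chr4:156200860-156200911, minus strand: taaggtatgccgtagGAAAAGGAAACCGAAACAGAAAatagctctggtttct
Oas1a, chr5:120907515-120907560, minus strand: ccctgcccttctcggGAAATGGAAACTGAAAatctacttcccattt
Bst2, chr8:71537572-71537617, minus strand: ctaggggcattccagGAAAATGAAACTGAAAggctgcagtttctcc
B2m, chr2:122147533-122147572, plus strand: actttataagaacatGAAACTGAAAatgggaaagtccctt
The first 4 belong to members that fell, Ifit1 and Isg15 to members called only with the block, and Oas1a, Bst2 and B2m to members not called in either fit. Ddx58, Ifih1, Gbp3, Ifit3 and Oas3 also held the core. All 10 members that fell without the block had a promoter entry, and 6 of them held the core. Cmpk2, Tap1, Trim25 and Oasl2 did not. Of the members not called without the block, 20 had an entry and 8 of these held the core.

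Across the 39 members, 10 fell, none rose and 29 were not called by limma. Of all genes tested 4.75% fell and 8.61% rose (13.4% in either direction), while falls made up 25.6% of the members. None of the members was higher at an unadjusted p under 0.05 or by limma-voom either. With the replicate block 26 members fell and none rose, against 12.0% of all genes that fell and 14.9% that rose (26.8% in either direction). The median change was -0.55 over the members, from -2.64 to 0.27, and -0.03 over all genes tested. Every stimulated value lay below every control value for 22 members (15.4% of all genes tested) and every stimulated value above every control value for none (17.8% of all genes). Within each of the 3 same-numbered pairs the stimulated library was lower for 29 members, against 28.2% of all genes. Scaling to equal library totals moved the median of all genes to -0.20 and upper-quartile factors to -0.11. The members' median minus that of all genes was -0.52 as deposited and with both of these scalings. Scaling shifts all genes of a library by nearly the same amount, so this difference could hardly move and is no check of the scaling. In stimulated libraries 31 of the 39 members were lowest in replicate 2. In control libraries 16 were lowest in replicate 2 and 20 in replicate 3. The count of falls among the members depended on the library left out. It was 2 without control replicate 1, 3 without control replicate 3 and 3 without stimulated replicate 3. It was 9 without stimulated replicate 2, and 7 without stimulated replicate 1 or control replicate 2. Falls among all genes tested dropped in these fits too, from 1032 to 323, 307, 257, 675, 772 and 773 in the same order. Each of these fits had fewer samples, and how far this lowered the members' counts was not tested.

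**Figure D1:**
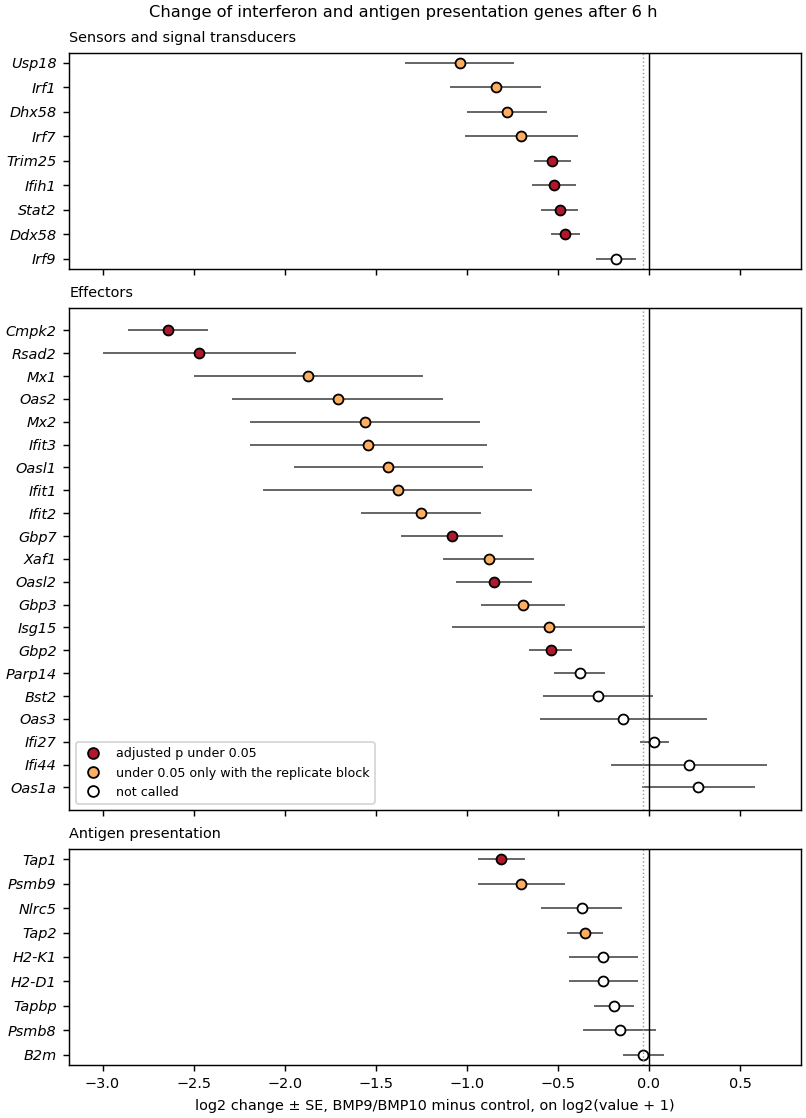
Change of each of the 39 members on the log2(value + 1) scale (x axis, BMP9/BMP10 minus control, bars give the SE), in 3 panels by role. Red points passed limma at an adjusted p of 0.05, orange points only with the replicate block, and white points in neither fit; the dotted line is the median of all genes tested, -0.03. Cmpk2 and Rsad2 lie farthest left at -2.64 and -2.47, and 3 effectors lie right of 0.

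The sensors and signal transducers lay lower in stimulated cells, with 4 of 9 past the test, 8 with the block, and a median change of -0.53 over the list. The falls were 44.4% of the list (88.9% with the block), against 4.75% of all genes (12.0% with the block). Ddx58 encodes RIG-I, which recognizes the ends of viral RNA, and Ifih1 encodes its relative MDA5, which binds long double-stranded RNA. Ddx58 had 1079, 1097 and 1031 in stimulated libraries, against 1423, 1532 and 1458 in control libraries. The groups were well apart and the 3 stimulated values lay close together, and Ddx58 fell by 0.46 ± 0.08 (limma adjusted p = 0.013). Ifih1 had 323, 337 and 340 in stimulated libraries, against 495, 530 and 421 in control libraries. It fell by 0.52 ± 0.12 (limma adjusted p = 0.0336), with the lowest control value still above the highest stimulated one. Trim25, a ubiquitin ligase that activates RIG-I, had 1502, 1316 and 1391 in stimulated libraries, against 1981, 2205 and 1895 in control libraries. It fell by 0.53 ± 0.10 (limma adjusted p = 0.0147), again without overlap. Dhx58, which encodes LGP2, the third RIG-I family member and a regulator of the other two, had 138, 85 and 120 in stimulated libraries, against 220, 173 and 189 in control libraries. All stimulated values lay below the controls. The difference of -0.78 ± 0.22 passed with the block but not in the same fit without it (limma adjusted p = 0.0588, and 0.00925 with the replicate block). Without the block Dhx58 passed with equal library totals (0.0323) and with a minimum mean of 50 (0.0498).

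Among the transducers, Stat2, a subunit of the interferon-activated transcription complex, had 926, 789 and 876 in stimulated libraries, against 1309, 1176 and 1159 in control libraries. It fell by 0.49 ± 0.10 (limma adjusted p = 0.0224), and the groups did not overlap. Irf1, an interferon regulatory factor that drives antigen presentation genes, had 485, 966 and 616 in stimulated libraries, against 1078, 1395 and 1095 in control libraries. Replicate 2 was the highest of its group on both sides. The difference of -0.84 ± 0.25 passed with the block but not in the same fit without it (limma adjusted p = 0.0718, and 0.00385 with the replicate block). Without the block Irf1 passed with equal library totals (0.037) and with upper-quartile factors (0.0461). Usp18, a protease that removes ISG15 from proteins and dampens the interferon receptor, had 115, 65 and 131 in stimulated libraries, against 261, 191 and 173 in control libraries. Its stimulated mean was 104 ± 34.4 and its control mean 208 ± 46.5 (SD, n = 3 each). The change of -1.04 ± 0.30 passed with the block but not in the same fit without it (limma adjusted p = 0.0645, and 0.0173 with the replicate block). With equal library totals Usp18 passed without the block (0.0391). Irf7, the factor that amplifies interferon production, had 171, 98 and 227 in stimulated libraries, against 307, 219 and 247 in control libraries. These groups overlapped through stimulated replicate 3 and control replicate 2 (-0.70 ± 0.31, limma adjusted p = 0.189; 0.0447 with the replicate block). Irf9, the DNA-binding subunit of the STAT complex, averaged 690 ± 52.1 in stimulated and 786 ± 82.5 in control libraries (SD, n = 3 each) and was not called in either fit (-0.18 ± 0.11, limma adjusted p = 0.343).

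The 4 calls in this list were not stable to the model or to the choice of libraries. Without the intensity trend limma adjusted p was 0.0517 for Ddx58, 0.0566 for Trim25, 0.0666 for Stat2 and 0.0668 for Ifih1, which ended all 4. Without stimulated replicate 3, limma adjusted p was 0.0704 for Ddx58, 0.0738 for Trim25, 0.0895 for Stat2 and 0.114 for Ifih1. Without control replicate 1 it was 0.0527, 0.0592, 0.0928 and 0.123 for the same genes, while without control replicate 3 Trim25 alone was called and the others stood at 0.0606 (Ddx58), 0.0711 (Stat2) and 0.0507 (Ifih1). Stat2 also missed the test without stimulated replicate 2 (0.0515), and Ifih1 without any one of the 6 libraries. The log2 changes stayed between -0.43 and -0.62 in these fits, which did not use the block.

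**Figure D2:**
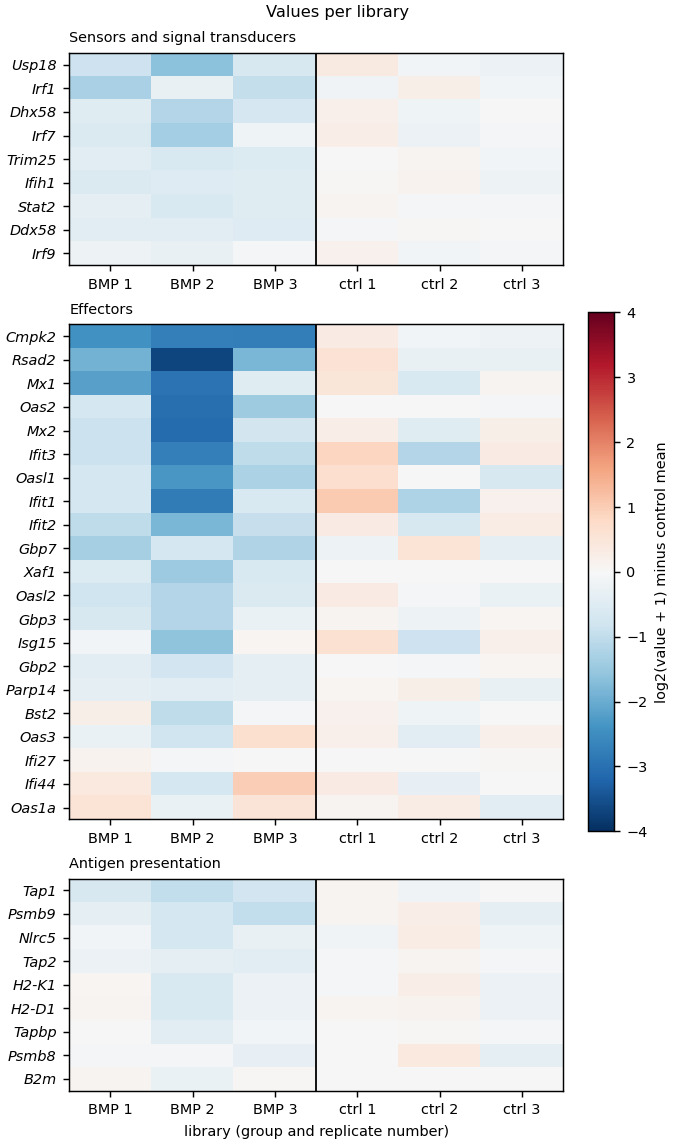
Values of the 39 members in each library, as log2(value + 1) minus the mean of the 3 control libraries, by role; blue is lower and red is higher than the control mean, and columns are stimulated replicates 1 to 3, left, and control replicates 1 to 3, right of the line. Stimulated replicate 2 is the darkest column for many effectors, and control replicate 2 is lower than the other controls for Ifit1, Ifit3 and Isg15.

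The effectors held the largest differences, with 5 of 21 fallen, 15 with the block, none risen, and a median change of -0.88. The falls were 23.8% of the list (71.4% with the block), against 4.75% of all genes (12.0% with the block). A neighbouring pair on chromosome 12 led the list: Rsad2 and Cmpk2 are transcribed away from each other, with start sites 12.8 kb apart in GENCODE M21. Rsad2 encodes viperin, which makes a chain-terminating nucleotide that stops viral RNA synthesis, and Cmpk2 encodes the nucleotide kinase that supplies its substrate. Cmpk2 had 38, 31 and 30 in stimulated libraries, against 264, 193 and 182 in control libraries. Its stimulated mean was 15.5% of the control mean, and it fell by 2.64 ± 0.22 (limma adjusted p = 0.00102), with differences of -2.76, -2.60 and -2.56 in the 3 pairs. Rsad2 had 57, 16 and 60 in stimulated libraries, against 324, 177 and 175 in control libraries. It fell by 2.47 ± 0.53 (limma adjusted p = 0.0259), a stimulated mean at 19.7% of the control mean. Stimulated replicate 2 was lowest by a wide margin, and the pairs differed by -2.49, -3.39 and -1.53. The Cmpk2 call was kept without each single library (highest limma adjusted p = 0.0123), while Rsad2 was not called when control replicate 1 (0.0943), 2 (0.0563) or 3 (0.0776) or stimulated replicate 3 (0.0631) was left out.

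The guanylate-binding protein genes, GTPases that attack the membranes around intracellular pathogens, moved in the same direction. Gbp7, Gbp3 and Gbp2 follow each other on chromosome 3, with start sites 29.7 and 60.6 kb apart. Gbp2 had 1095, 889 and 1139 in stimulated libraries, against 1493, 1437 and 1596 in control libraries. It fell by 0.54 ± 0.12 (limma adjusted p = 0.0262) with a clear gap between the groups. Gbp7 had 148, 231 and 162 in stimulated libraries, against 329, 551 and 292 in control libraries. Replicate 2 was highest on both sides, and Gbp7 fell by 1.08 ± 0.28 (limma adjusted p = 0.047; 0.00153 with the replicate block). Exons of another gene on the same strand cover 11.3% of the exonic bases of Gbp7, so its level is uncertain. How far reads were shared between these related genes was not examined. Gbp3 had 250, 174 and 326 in stimulated libraries, against 426, 341 and 413 in control libraries, without overlap. It passed with the block but not in the same fit without it (-0.69 ± 0.23, limma adjusted p = 0.102, and 0.0133 with the replicate block). With equal library totals Gbp3 passed without the block (0.0495). Gbp2 was not called without stimulated replicate 3 (0.0645), control replicate 1 (0.09) or control replicate 3 (0.105), and with 1 library left out Gbp7 was called only without stimulated replicate 2 (0.0493). Without the intensity trend Rsad2 (0.0662), Gbp2 (0.075), Oasl2 (0.0865) and Gbp7 (0.0964) were not called, which left Cmpk2 (0.00843) among the effectors.

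The Ifit genes, whose proteins bind viral RNA that lacks host cap marks, form a cluster on chromosome 19 and split by replicate number. Ifit2 had 706, 399 and 755 in stimulated libraries, against 1808, 924 and 1735 in control libraries. Its groups did not overlap, and it missed the test narrowly without the block (-1.25 ± 0.33, limma adjusted p = 0.0506) and fell with it (± 0.08, adjusted p = 0.000173). Ifit3 had 637, 171 and 571 in stimulated libraries, against 2086, 507 and 1445 in control libraries. Control replicate 2 lay below 2 of the stimulated values, so the groups overlapped, while each pair differed by between -1.34 and -1.71 (limma adjusted p = 0.176; 0.000189 with the replicate block). Ifit1 had 331, 77 and 352 in stimulated libraries, against 1125, 230 and 615 in control libraries. It overlapped in the same way, at -1.76, -1.57 and -0.80 in the 3 pairs (limma adjusted p = 0.275; 0.00293 with the replicate block). A near copy of Ifit3, Ifit3b, was annotated as a gene of its own, with 139, 32 and 146 in stimulated libraries and 574, 119 and 379 in control libraries (limma adjusted p = 0.176; 0.000792 with the replicate block), so the split of reads between them is uncertain. Replicate 2 was thus the lowest library of its group for all 3 listed Ifit genes in both groups, and it was also the one with the highest endothelial marker sums, 45993 in the stimulated and 49359 in the control group. The sums of epithelial and mesothelial markers (37995 in stimulated and 37344 in control replicate 2) and of dendritic cell and lymphocyte markers (2869 in stimulated and 3280 in control replicate 2) were highest there too. The part of those cells in the Ifit levels was not tested.

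**Figure D3:**
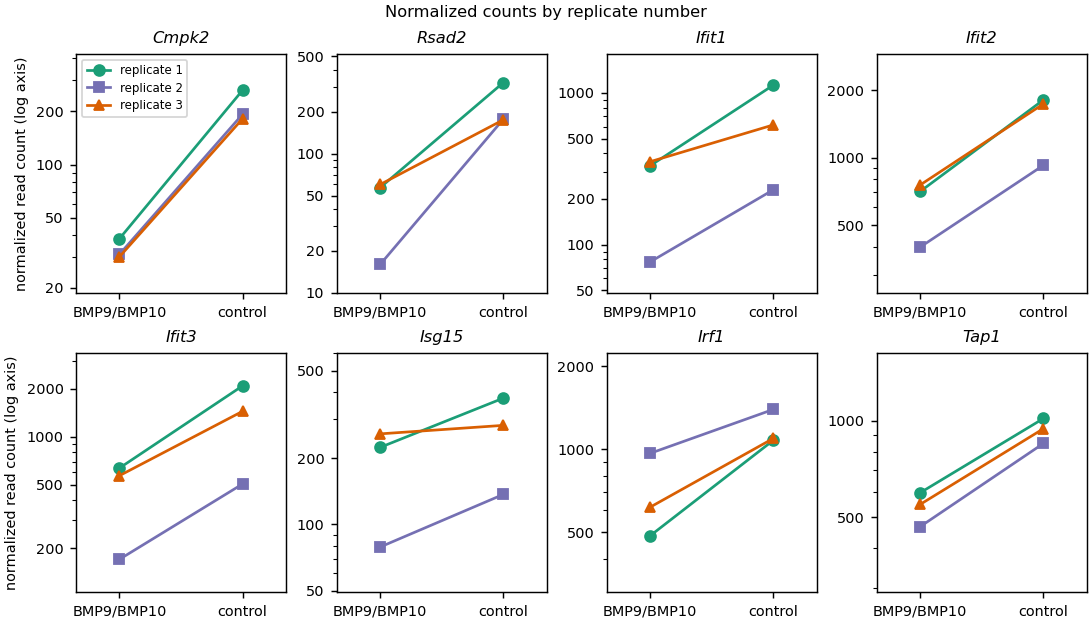
Normalized read counts (log axis, with its own range in each panel) of 8 members in stimulated libraries, left, and control libraries, right, joined by replicate number. Every line is higher on the control side; replicate 2 runs below the others for Ifit1, Ifit2, Ifit3 and Isg15 and above them for Irf1.

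The oligoadenylate synthetase family, which senses double-stranded RNA and activates RNase L, was not uniform. Oasl2 and Oasl1, synthetase-like genes with start sites 26.3 kb apart on chromosome 5, were both lower in each pair. Oasl2 had 224, 173 and 259 in stimulated libraries, against 493, 372 and 324 in control libraries. It fell by 0.85 ± 0.21 (limma adjusted p = 0.042) without overlap, a call that no fit with 1 library left out kept (0.0719 to 0.13). Oasl1 averaged 15.7 ± 8.5 in stimulated and 42.3 ± 19.2 in control libraries, and Oas2 averaged 11 ± 8 in stimulated and 31.3 ± 1.15 in control libraries (SD, n = 3 each). Both passed only with the block (limma adjusted p = 0.122 and 0.102; 0.0346 and 0.0427 with the replicate block). Oas1a had 87, 49 and 84 in stimulated libraries, against 63, 73 and 44 in control libraries. Its groups overlapped, and its change of 0.27 ± 0.31 was the highest of the members (limma adjusted p = 0.622, 95% interval -0.46 to 1.00). Oas3 was near the floor of the table, at 9, 6 and 18 in stimulated and 13, 8 and 13 in control libraries, too low to show a difference of moderate size (95% interval -1.23 to 0.96).

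Other antiviral effectors also lay lower in every pair. Mx1 and Mx2 encode dynamin-like GTPases that block viral replication, and C57BL/6 mice are known to carry defective alleles of both. Mx1 had 16, 9 and 54 in stimulated libraries, against 106, 50 and 83 in control libraries, and Mx2 had 41, 8 and 44 in stimulated libraries, against 89, 53 and 88 in control libraries. Mx1 overlapped through stimulated replicate 3, and both passed only with the block (limma adjusted p = 0.1 and 0.158; 0.0181 and 0.0201 with the replicate block). Xaf1, a factor that promotes cell death, had 233, 124 and 224 in stimulated libraries, against 340, 350 and 339 in control libraries. The 3 control values were nearly equal and all higher than the stimulated ones (-0.88 ± 0.25, limma adjusted p = 0.0607; 0.0198 with the replicate block). Isg15, the ubiquitin-like modifier, had 224, 79 and 258 in stimulated libraries, against 375, 137 and 282 in control libraries. Its groups overlapped widely, and it passed only with the block and close to the threshold (-0.55 ± 0.53, limma adjusted p = 0.551; 0.0481 with the replicate block). Parp14, an ADP-ribosyltransferase of the antiviral response, averaged 877 ± 26.3 in stimulated and 1156.7 ± 215 in control libraries and passed in neither fit (SD, n = 3 each; limma adjusted p = 0.134; 0.057 with the replicate block), although its groups did not overlap.

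The remaining effectors were not called. Bst2, which encodes tetherin, a protein that holds budding virus on the cell, had 2067, 861 and 1660 in stimulated libraries, against 1967, 1532 and 1762 in control libraries. Stimulated replicate 2 stood alone at the low end (-0.28 ± 0.30, limma adjusted p = 0.601), and without it the estimate was 0.09. Ifi27, a mitochondrial interferon-induced protein, had 2422, 2122 and 2244 in stimulated libraries, against 2203, 2172 and 2281 in control libraries. This was the most even of the effectors, with a change of 0.03 ± 0.08 and a 95% interval of -0.17 to 0.22; the sign turned with upper-quartile factors and with equal library totals. Ifi44, an interferon-induced cytoplasmic protein, had 112, 52 and 168 in stimulated libraries, against 108, 68 and 84 in control libraries, and its estimate of 0.22 ± 0.43 rested on stimulated replicate 3 (-0.15 without it). Per kb of exonic length, Bst2 and Ifi27 had the highest levels among the effectors in control libraries, at 1942.0 and 1512.4 normalized counts per kb, against 771 for Ifit3, 600 for Gbp2 and 51.2 for Cmpk2.

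Of the 9 antigen presentation members 1 fell, 11.1% against 4.75% of all genes, and 3 fell with the block, 33.3% against 12.0%. None rose, and the median change was -0.25. The gene that fell was Tap1, a subunit of the TAP peptide transporter, with 596, 467 and 548 in stimulated libraries, against 1017, 850 and 945 in control libraries. It fell by 0.81 ± 0.13 (limma adjusted p = 0.009), with nearly the same difference in each pair (-0.77, -0.86 and -0.79), and kept its call without each single library (highest limma adjusted p = 0.0497). Psmb9, an immunoproteasome subunit gene, lies beside it on chromosome 17 on the opposite strand, with start sites 211 bases apart. Psmb9 had 128, 104 and 84 in stimulated libraries, against 182, 205 and 129 in control libraries. Its groups came within 1 count of each other without overlap, and it passed only with the block (-0.70 ± 0.24, limma adjusted p = 0.107; 0.0182 with the replicate block). Tap2, the other TAP subunit, had 710, 625 and 611 in stimulated libraries, against 792, 891 and 802 in control libraries. That smaller difference also passed with the block but not in the same fit without it (-0.35 ± 0.10, limma adjusted p = 0.0697, and 0.0342 with the replicate block). Without the block Tap2 passed with equal library totals (0.0276), upper-quartile factors (0.0446) and a minimum mean of 50 (0.0455). Exons of a gene read from the other strand cover 18.5% of the exonic bases of Tap2, so its level is uncertain where counting ignored strand.

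The MHC class I molecules themselves were not called. H2-K1, a class I heavy chain, had 8933, 5578 and 7103 in stimulated libraries, against 8198, 10082 and 7236 in control libraries. H2-D1, the other classical heavy chain of this strain, had 13672, 8200 and 10601 in stimulated libraries, against 13409, 13886 and 10638 in control libraries. Both estimates were -0.25 ± 0.19 (95% intervals -0.71 to 0.20 and -0.71 to 0.21; limma adjusted p = 0.444 and 0.465) and came from replicate 2, with pair differences of -0.85 and -0.76 there and between -0.03 and 0.12 in the other pairs. Without both replicate 2 libraries they were 0.05 and 0.01. The class I genes are similar in sequence, so the split of reads among them is uncertain. B2m, the class I light chain, had 25914, 19829 and 24451 in stimulated libraries, against 24134, 23877 and 23331 in control libraries, a change of -0.03 ± 0.11 (limma adjusted p = 0.881, 95% interval -0.29 to 0.23). It was the highest member per kb, at 27651.9 normalized counts per kb in control libraries. Tapbp, which loads peptides on class I, had 4649, 3510 and 4343 in stimulated libraries, against 4693, 4851 and 4592 in control libraries, and its groups overlapped through stimulated replicate 1. Exons read from the other strand cover 24.9% of the exonic bases of Tapbp, so its level is uncertain where counting ignored strand. Psmb8, another immunoproteasome subunit, averaged 322 ± 31.3 in stimulated and 366 ± 94.9 in control libraries (SD, n = 3 each). Nlrc5, the transactivator of class I genes, had 181, 119 and 160 in stimulated libraries, against 179, 243 and 172 in control libraries, and overlapped. None of these 3 passed in either fit (limma adjusted p = 0.335, 0.667 and 0.318), and the difference between the 3 groups of members was not tested.

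**Figure D4:**
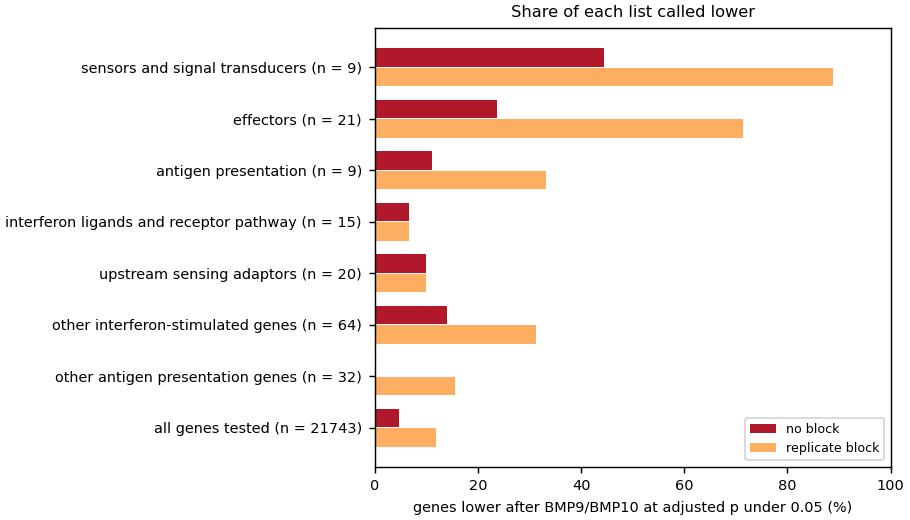
Share of each gene list that was lower after BMP9/BMP10 at a limma adjusted p under 0.05 (x axis, percent), without (red) and with (orange) the replicate block; n is the number of genes tested. The sensors reach 44.4% and 88.9%, the effectors 23.8% and 71.4% and the antigen presentation members 11.1% and 33.3%, against 4.75% and 12.0% of all genes.

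The rest of the pathway was read from 4 wider lists. The interferon ligands named there, 9 genes, are not analysed here. Of 15 tested receptor and signal transduction genes, 1 fell and 1 rose (1 and 2 with the block). The falls were 6.67% of the list in both fits, against 4.75% of all genes (12.0% with the block). Rises were 8.61% of all genes (14.9% with the block). Tyk2, a JAK kinase of the type I interferon receptor, had 1276, 1219 and 1282 in stimulated libraries, against 1688, 1842 and 1734 in control libraries, and fell by 0.48 ± 0.08 (limma adjusted p = 0.0108). Ptpn2, a phosphatase that switches off JAK and STAT proteins, had 1028, 1091 and 1108 in stimulated libraries, against 716, 844 and 721 in control libraries, and rose by 0.50 ± 0.10 (limma adjusted p = 0.0208). The groups were apart for both genes. Ptpn2 missed the threshold when libraries were scaled to equal totals (0.0799) and in limma without the intensity trend (0.0617). It also missed it when control replicate 1 (0.0883) or 3 (0.0887) was dropped and when stimulated replicate 2 (0.0531) or 3 (0.0971) was. Tyk2 missed it when control replicate 3 (0.0535) or stimulated replicate 3 (0.0542) was dropped. The receptor genes Ifnar1, Ifnar2, Ifngr1 and Ifngr2 had changes of -0.04 ± 0.14, -0.01 ± 0.09, 0.09 ± 0.13 and 0.14 ± 0.13, with none called, and the sign of each turned under at least 1 alternative.

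Among 20 tested adaptors and regulators of sensing, 2 fell and 2 rose (2 and 3 with the block). The falls were 10.0% of the list in both fits, against 4.75% of all genes (12.0% with the block). Rises were 8.61% of all genes (14.9% with the block). Ikbke, a kinase that phosphorylates interferon regulatory factors, had 713, 476 and 491 in stimulated libraries, against 1017, 1032 and 936 in control libraries, and fell by 0.85 ± 0.17 (limma adjusted p = 0.019). Trim21, an antibody receptor of the cytosol, averaged 253 ± 19.5 in stimulated and 415 ± 17.3 in control libraries (SD, n = 3 each) and fell by 0.71 ± 0.12 (limma adjusted p = 0.0101). Traf3, an adaptor of the RNA-sensing pathway, had 1946, 1996 and 2065 in stimulated libraries, against 1309, 1168 and 1242 in control libraries. It rose by 0.69 ± 0.08 (limma adjusted p = 0.00355), as did Tnfaip3, a ubiquitin-editing inhibitor of NF-kappaB, by 0.98 ± 0.22 (limma adjusted p = 0.0278). Without stimulated replicate 3 limma adjusted p was 0.0906 for Ikbke, 0.057 for Trim21 and 0.12 for Tnfaip3, and without control replicate 1 it was 0.0759, 0.0542 and 0.101. Tnfaip3 also missed the threshold with equal library totals (0.055), without stimulated replicate 1 (0.0759) and without control replicate 3 (0.0956). With 1 library left out, Ikbke was called only when that was stimulated replicate 1 (0.00649). Both Tnfaip3 (0.072) and Ikbke (0.0578) missed the threshold in limma without the intensity trend.

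Of 64 other interferon-stimulated genes tested, 9 fell and 1 rose (20 and 5 with the block), with a median change of -0.26. The falls were 14.1% of the list (31.2% with the block), against 4.75% of all genes (12.0% with the block). Rises were 8.61% of all genes (14.9% with the block). Rnf213, a large ubiquitin ligase, averaged 1930 ± 18.3 in stimulated and 3364 ± 295 in control libraries (SD, n = 3 each) and fell by 0.80 ± 0.09 (limma adjusted p = 0.00276). Irgm2, an immunity-related GTPase, had 347, 335 and 359 in stimulated libraries, against 773, 589 and 680 in control libraries, and fell by 0.96 ± 0.13 (limma adjusted p = 0.00502). Rtp4, which restrains viral RNA replication, fell by 1.44 ± 0.25, and the guanylate-binding protein gene Gbp5 by 1.14 ± 0.21. The other falls were those of Trafd1 (-0.45 ± 0.08), Dtx3l (-0.55 ± 0.12), Pml (-0.38 ± 0.08), Parp10 (-0.56 ± 0.13) and Znfx1 (-0.33 ± 0.08). Apol9a, an apolipoprotein L gene, went the other way, with 58, 69 and 58 in stimulated libraries, against 18, 28 and 23 in control libraries, and rose by 1.40 ± 0.25 (limma adjusted p = 0.015). The count of falls in this list was 2 without stimulated replicate 3, 3 without control replicate 1, 4 without control replicate 3 and 5 without stimulated replicate 2.

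Of 32 other antigen presentation genes tested, none fell or rose by limma or limma-voom (3 were lower and 1 higher at an unadjusted p under 0.05), and 5 fell and 1 rose with the block. The falls with the block were 15.6% of the list, against 12.0% of all genes, a share near the background, and 14.9% of all genes rose. The falls with the block were those of H2-T10 (-0.91 ± 0.26), H2-T22 (-0.30 ± 0.10) and H2-Q6 (-0.88 ± 0.85), which encode nonclassical class I molecules, and of the proteasome genes Psmb10 (-0.35 ± 0.11) and Psme1 (-0.24 ± 0.10), while Pdia3, of the peptide loading complex, had a change of 0.27 ± 0.09; the SEs are those without the block. Exons read from the other strand cover 27.1% of the exonic bases of H2-T10 and 29.4% of those of H2-T22. Their levels are uncertain where counting ignored strand. The class II genes H2-Aa, H2-Ab1 and H2-Eb1 and their invariant chain Cd74 were highest in replicate 2 of both groups, with 1762, 414, 504 and 1106 in stimulated replicate 2 and 1422, 495, 323 and 1149 in control replicate 2. None of these 4 was called in either fit.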

How the data were processed

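Per the labels' protocols, total RNA of 3 stimulated and 3 control samples went into libraries of a stranded kit. The submitters' processing notes name STAR 2.6.1d and featureCounts 1.6.3, besides Trimmomatic 0.38, FastQC and the authors' DESeq2 1.18.1; mm10 stands there beside hg38 and GRCh38. Which strand was counted, and on which annotation, is not given in the sources used here. The deposited table holds 1 score per gene and library, a whole number that the authors had normalized, since low values step by a factor of their own in 5 of the 6 libraries. Count models were therefore not used.

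Changes were fitted with limma 3.58.1 (R 4.3.3, intensity trend) on log2(value + 1), 4 residual degrees of freedom, for genes with a mean of at least 1 (42 left out). A fold change on this scale understates that of low genes. The fit was tested on simulated data. Symbols came from GENCODE M21 (mm10), matched for 21747 of 21785 rows. Deviations from the group means of same-numbered libraries correlated by 0.747, 0.741 and 0.218 (13185 genes, mean of 50 or more). All 3 exceed 0.1, and the replicate numbers were treated as pairing the samples, although control replicate 3 correlated more with stimulated replicate 1 (0.287). Promoters came from RefSeq (GRCm38.p6), with entries for 30 of 39 members.

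The members and lists were chosen with earlier results of these data known. All members are named; those past the threshold, and the 6 with the smallest p in each list, get their value in each library, and others where values show overlap. Of the wider lists, genes past the threshold are named, up to 10 a list; the genes called with the block and the class II genes were chosen after their values were seen. The 18 alternatives changed scaling, pseudocount, filter, tool, block or libraries. Some genes of the wider lists and marker lists are not reported here by name.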

Additional observations from a re-analysis of the deposited data

How the results depend on the processing

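Cmpk2 and Tap1 kept their calls under all 18 alternatives, and no called member changed sign (45 of 180 values lost the call). Falls among the 39 members, 10 as reported, were 17 with equal library totals, 2 without the intensity trend, 26 with the replicate block and 29 with the block and equal totals, and 2 to 9 when 1 library was left out. Sensors and signal transducers (4) had 7, 0, 8 and 9 in the same order, and 0 to 3. Effectors (5) had 8, 1, 15 and 16, and 1 to 5, and 8 without both replicate 2 libraries. Antigen presentation members (1) had 2 with equal totals, upper-quartile factors or a minimum mean of 50, 3 with the block and 4 with the block and equal totals, and 1 whichever library was left out. The receptor pathway (1) had 2 with equal totals and 4 with the block added, and 0 to 1. Upstream adaptors (2) had 1 without the trend or without both replicate 2 libraries and 7 with the block and equal totals, and 0 to 2. Other interferon-stimulated genes (9) had 17, 5, 20 and 33, and 2 to 9. Other antigen presentation genes (0) had 3 with equal totals, 2 with upper-quartile factors, 5 with the block and 12 with both, and 0 without any library. Over all genes the calls, 2905 as reported, were 1610 without the trend, 5837 with the block and 6957 with the block and equal totals, and 916 to 2341 with 1 library left out; rises made up 64.5% of the calls on the deposited values, 51.2% after upper-quartile scaling and 33.4% after scaling to equal totals. The causes were not tested, but leaving out a library also leaves fewer samples.

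Signs turned only for estimates near 0 that were not called: Ifi27 (-0.05 with upper-quartile factors, -0.15 with equal totals, with or without the block, and -0.02 to 0.07 with 1 library left out), Ifngr1 (-0.08 with equal totals, with or without the block, -0.01 to 0.18 with 1 library left out, the lowest without stimulated replicate 2), Ifngr2 (-0.03 with equal totals, with or without the block), Ifnar1 (-0.12 to 0.10 with 1 library left out, above 0 without stimulated replicate 1, 0.02, or control replicate 2, 0.04 without both replicate 2 libraries), Ifnar2 (-0.06 to 0.06 with 1 library left out, above 0 without stimulated replicate 3, 0.01, or control replicate 2, 0.07 without both replicate 2 libraries), and, with 1 library left out, Oas3 (-0.53 to 0.19), Bst2 (-0.54 to 0.09) and B2m (-0.11 to 0.08), each above 0 without stimulated replicate 2, Ifi44 (-0.15 to 0.68, below 0 without stimulated replicate 3) and Psmb8 (-0.34 to 0.03, above 0 without control replicate 2), and B2m (0.09), H2-K1 (0.05) and H2-D1 (0.01) without both replicate 2 libraries. Stimulated replicate 3 was read more deeply than the others whose depth could be estimated, and low genes such as Oas3 have few reads behind them.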
